A study of Saccharomyces cerevisiae with 7 samples.

Results

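The genes described here are 8 sporulation genes of budding yeast (Saccharomyces cerevisiae): SPS4 (YOR313C), SPS18 (YNL204C), SPR2 (YOR214C), SPR6 (YER115C), SPO19 (YPL130W), PFS1 (YHR185C), PES4 (YFR023W) and MIP6 (YHR015W). They were picked by systematic name, all 8 had a value at every time point, and they make up 8 of the 5666 rows with values in a table of 6141 rows. Cells in meiosis were collected by filtration at 1, 2, 3, 4, 5, 6 and 8 h, and their poly(A)+ RNA, labelled with the red dye Cy5, was hybridised on 2-colour arrays against a mix of meiotic mRNA labelled with the green dye Cy3. Each deposited value is the log2 of a gene's ratio to the mix at that hour over its ratio to the mix at 0 h, so 0 is the 0 h level and 1 is 2-fold above it. The series design names 3 independent cultures, but the table has 1 column for each hour, and the values below therefore come without replicate errors. Not given in the sources used here are the strain, its genotype and the sporulation medium.

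Sporulation in yeast runs as a cascade of transcription. Early genes carry DNA replication and recombination, middle genes are switched on when the activator Ndt80 replaces the repressor Sum1 at a shared promoter element, and late genes finish the spore wall. Middle genes encode what is needed to divide the nuclei and to enclose them in new membranes (prospore membranes) and walls, and some encode RNA-binding proteins that hold back or protect other messages. SPS and SPR names were given to genes found by their expression in sporulating cells, and several of them have no known essential role there.

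All 8 transcripts took their main step up between 3 h and 5 h and were still high at 8 h. Up to 3 h they lay between -0.90 and 1.07 on the log2 scale. Their median log2 ratio was -0.28, -0.14 and 0.30 at 1, 2 and 3 h, 3.52 at 4 h, then 7.30, 7.46 and 7.68 at 5, 6 and 8 h. The median over all rows lay between -0.04 and 0.01 at those hours. None of the 8 stood 2-fold above 0 h at 1 h or 2 h, 1 did at 3 h (SPS4), and 8 did from 4 h on. Over all rows the share at least 2-fold above 0 h was 7.11%, 9.42% and 9.81% at 1, 2 and 3 h, 12.1% at 4 h, and then 17.6%, 17.8% and 17.6% at 5, 6 and 8 h. In bulk samples, more cells at a stage and more RNA per cell cannot be told apart.

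**Figure D1:**
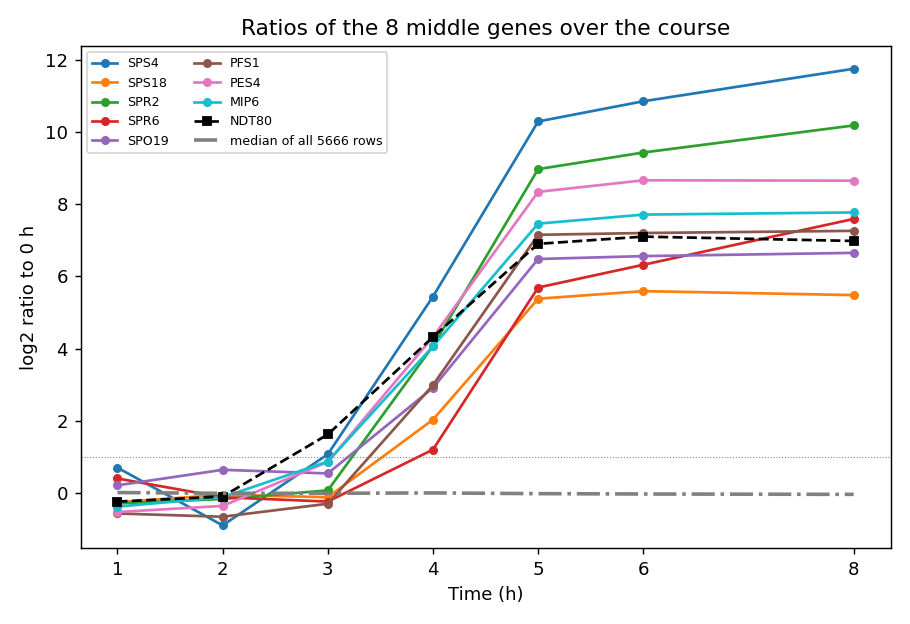
The log2 ratio to 0 h of each of the 8 genes (solid lines), of NDT80 (black dashes) and the median of all 5666 rows (grey) is plotted against time in hours, with 1 deposited value per point and a dotted line at a log2 ratio of 1. At 3 h the 8 genes lie between -0.30 and 1.07, and at 5 h between 5.38 and 10.29.

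By the rule used for induction, a log2 ratio of 1 or more at 2 consecutive sampled hours, 8 of the 8 genes were induced, and 21.8% of all rows met the same rule. A trend over the 7 hours was tested in limma with linear and quadratic time terms, fitted row by row, with Benjamini-Hochberg adjustment over all 5666 rows. It called 8 of the 8 upward, beside 23.3% of all rows, with adjusted p between 0.00814 for MIP6 and 0.0161 for SPS18. Such p-values reflect how far the hours scatter about the curve, and cultures were not compared. The curve did not follow the step closely: the residual SD of the 8 genes was 1.42 to 2.44 on the log2 scale. Because the choice of genes was made with results of these data known, the counts describe the genes and do not set them apart.

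SPS4, a gene strongly transcribed in sporulating cells whose protein is dispensable for making spores, held the highest ratio of the table at 8 h. Its log2 ratio was 0.70, -0.90 and 1.07 at 1, 2 and 3 h, 5.44 at 4 h, then 10.29, 10.85 and 11.75 at 5, 6 and 8 h. The 8 h value is a ratio of 3444-fold to 0 h. The sources used here do not say how background was treated at 0 h, so folds of this size may depend on it. SPS4 had the widest swing of the 8 genes before the step, falling below its 0 h level at 2 h to rank 5127 of 5666 rows, after rank 688 at 1 h. It was the only one of the 8 at or above a log2 ratio of 1 at 3 h. Its trend had an adjusted p of 0.0114.

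SPR2 followed SPS4 in height. It stood at -0.29, -0.17 and 0.07 at 1, 2 and 3 h, at 4.07 at 4 h and at 8.97, 9.43 and 10.18 at 5, 6 and 8 h (adjusted p = 0.0106). Unlike SPS4 it stayed close to the 0 h level until 3 h. The rise from 3 h to 5 h was 8.90 for SPR2 and 9.22 for SPS4, which ranked 4 and 2 among all rows.

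SPO19 is the paralog of SPR2 from the whole-genome duplication, and its product, a protein of the prospore membrane, helps that membrane to bend around the nucleus. Its log2 ratio was 0.21, 0.64 and 0.54 at 1, 2 and 3 h, 2.91 at 4 h, then 6.48, 6.56 and 6.65 at 5, 6 and 8 h (adjusted p = 0.0138). SPO19 lay above its 0 h level at every hour, while the other 7 genes fell below theirs at 1 or more of the first 3 hours. The difference SPR2 minus SPO19 was -0.50, -0.81 and -0.47 at 1, 2 and 3 h, 1.16 at 4 h, then 2.49, 2.87 and 3.53 at 5, 6 and 8 h. SPR2 was thus the lower of the pair before the step and the higher one after it, and it went on rising after 5 h (by 1.21 to 8 h) where SPO19 added 0.17. These are ratios to each gene's own 0 h level and not amounts of transcript, and the difference between the paralogs was not tested.

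The step of SPR6, a sporulation gene of unknown function, came later. The log2 ratio of SPR6 was 0.40, -0.12 and -0.24 at 1, 2 and 3 h, 1.20 at 4 h, then 5.69, 6.32 and 7.59 at 5, 6 and 8 h (adjusted p = 0.0142). At 4 h it was the lowest of the 8, at 15.8% of its highest log2 ratio, where the others had reached 36.3% to 52.3%. Its rise from 5 h to 8 h, 1.90, was the largest of the 8 and ranked 47 among all rows. By 8 h it had passed SPS18, SPO19 and PFS1.

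SPS18 encodes a protein with a zinc finger of the kind found in ArfGAP proteins and is the paralog of GCS1, a regulator of vesicle traffic. It reached the lowest height of the 8. Its log2 ratio was -0.26, -0.05 and -0.12 at 1, 2 and 3 h, 2.03 at 4 h, then 5.38, 5.59 and 5.48 at 5, 6 and 8 h (adjusted p = 0.0161). With the 2 h column left out its adjusted p was 0.0537, the 1 loss of a call among the 8 genes in 13 alternative fits. In that fit PFS1, SPR6 and SPO19 were just under the threshold, at 0.0495, 0.0487 and 0.0480. Of the 13, the ratio to 1 h and the fit without 1 h gave the same p-values for the 8 genes. In the main fit SPS18 was called. GCS1 stood between -0.04 and 0.34 up to 4 h and at 0.97, 1.07 and 0.80 at 5, 6 and 8 h (adjusted p = 0.0413). GCS1 also took its largest step between 4 h and 5 h, to a much lower height than SPS18.

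PFS1, also called ADY1, is needed for prospore membranes to form at all 4 spindle poles of the second division. It stood at -0.57, -0.66 and -0.30 at 1, 2 and 3 h, at 2.99 at 4 h and at 7.15, 7.20 and 7.26 at 5, 6 and 8 h (adjusted p = 0.0142). It was below 0 h at each of the first 3 hours and then flat from 5 h on, adding 0.11 to 8 h.

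The spindle poles nucleate those membranes from the meiotic outer plaque, so genes of the outer plaque were set beside PFS1. Of 8 listed genes of the outer plaque, in its meiotic or mitotic form, and of its anchor, 6 were induced, beside 21.8% of all rows. The same number were called upward by the trend test, beside 23.3% of all rows. SPO74, a plaque component, was the highest of them, at 1.31, 4.81, 8.55 and 8.70 at 3, 4, 5 and 8 h, and SPO21, for a main plaque protein, reached 5.85 at 5 h. MPC54, another plaque subunit, was already at 2.81 at 1 h, an hour at which PFS1 was below 0 h. CNM67 and SPC42 were highest at 4.23 (5 h) and 4.53 (8 h). NUD1 (-0.29 to 0.28) and SPC72 (-0.10 to 0.62), the latter for a protein of the mitotic outer plaque, were neither induced nor called.

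PES4 and MIP6 encode related proteins with RNA-recognition motifs. They act in sporulating cells on the translation and stability of messages held for later use, and Mip6 binds the mRNA export factor Mex67. The log2 ratio of PES4 was -0.53, -0.36 and 0.86 at 1, 2 and 3 h, 4.32 at 4 h, then 8.34, 8.66 and 8.65 at 5, 6 and 8 h (adjusted p = 0.00858). That of MIP6 was -0.38, -0.12 and 0.87 at 1, 2 and 3 h, 4.06 at 4 h, then 7.46, 7.71 and 7.77 at 5, 6 and 8 h (adjusted p = 0.00814). At 3 h both stood above SPR2, SPR6, SPS18 and PFS1, which lay between -0.30 and 0.07, but like them they first passed a log2 ratio of 1 at 4 h.

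The 2 RNA-binding genes had the closest courses of any pair among the 8. PES4 minus MIP6 was -0.15, -0.24 and -0.01 at 1, 2 and 3 h, 0.26 at 4 h and 0.88, 0.95 and 0.88 at 5, 6 and 8 h. The root-mean-square difference over the 7 hours was 0.61, against 0.70 to 3.89 for the other 27 pairs. Pearson's r over the 7 hours was 0.9999, and 0.947 to 0.9995 for the others. Genes outside the 8 lay closer still to each of them, IRC18 to PES4 (0.33) and GAS4 to MIP6 (0.36). SPR3, another middle gene, had r of 0.9997 with PES4 and 0.9998 with MIP6. The likeness is therefore not particular to the RNA-binding pair. With 7 points that share the division by 0 h and a common step, such coefficients are a description.

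**Figure D2:**
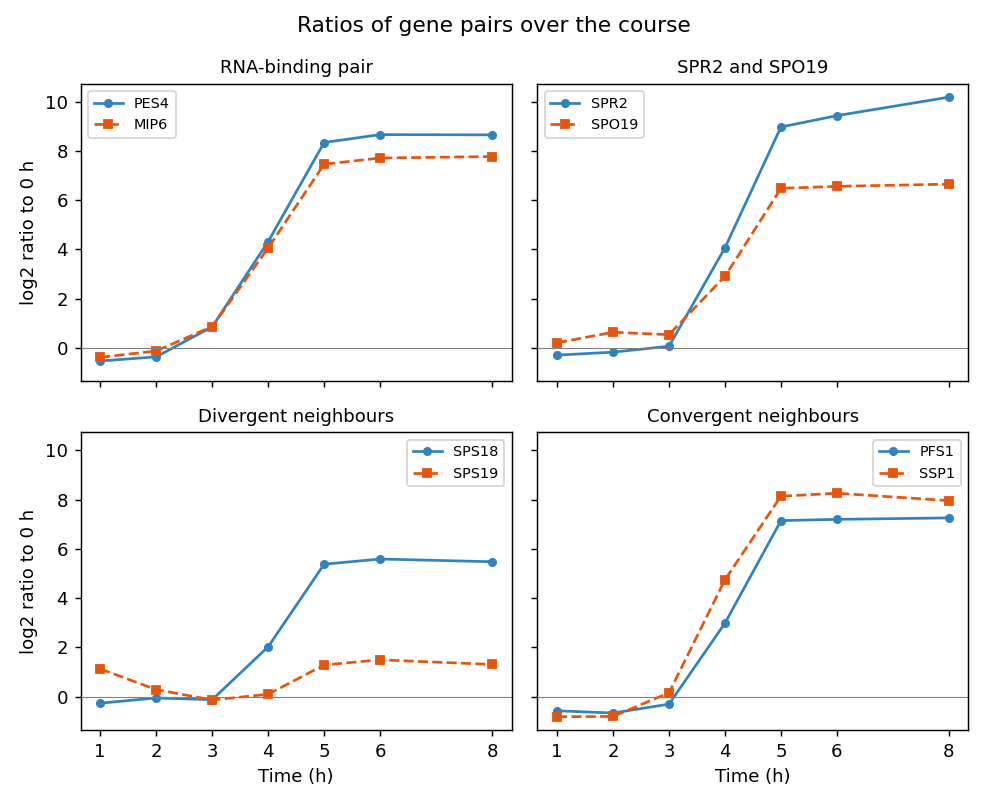
Each panel plots the log2 ratio to 0 h of 2 genes against time in hours, with 1 deposited value per point: PES4 and MIP6, SPR2 and its paralog SPO19, SPS18 and its divergent neighbour SPS19, and PFS1 and its convergent neighbour SSP1. PES4 and MIP6 differ by at most 0.95, while SPR2 ends 3.53 above SPO19 and SPS19 does not pass 1.50.

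Other genes of RNA binding and export did not share this course as a group. Of 10 listed, 9 had values, and their median was 0.07, 0.19 and 0.54 at 3, 4 and 5 h. Of the 9, 3 were induced, beside 21.8% of all rows. The trend test called 3 upward, beside 23.3% of all rows, and 2 downward, beside 1427 of the 5666 rows. Counts this small do not set the list apart from all rows. MRN1, which encodes a protein with RNA-recognition motifs, stood at 0.51, 1.83 and 3.16 at 1, 4 and 6 h (adjusted p = 0.0076). PAB1, the poly(A)-binding protein gene, was at -0.58, 0.19 and 1.65 at 1, 4 and 8 h (adjusted p = 0.00413). RIM4, which encodes a translational repressor of middle and late messages, went the other way after 4 h: it was at 2.18, 2.83 and 1.89 at 1, 4 and 8 h (adjusted p = 0.0169).

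MEX67 lay between -0.18 and 0.08 (adjusted p = 0.327). Its partner gene MTR2 fell from 0.66 at 1 h to -0.30 at 4 h and stood at -0.12 at 8 h (adjusted p = 0.0162). NAB2, for a poly(A) RNA-binding protein of export, stood at -0.45 and 0.87 at 1 and 8 h (adjusted p = 0.0202). NAB3 (0.21 to 0.39), SGN1 (-0.78 to -0.36) and NGR1 (0.07 to 0.82) were neither induced nor called.

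The interval of the rise was shared more closely than its size. From 3 h to 4 h the 8 genes rose by 1.44 (SPR6) to 4.37 (SPS4), and 8 of them by at least 2-fold, as did 1.94% of all rows. From 4 h to 5 h they rose by 3.35 (SPS18) to 4.90 (SPR2), and again 8 passed 2-fold, as did 9.35% of all rows. The 4 h to 5 h step was larger than the 3 h to 4 h step in each gene, narrowly so in MIP6 (3.40 and 3.19).

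After 5 h the genes parted. From 5 h to 8 h, SPR6 rose by 1.90, SPS4 by 1.46 and SPR2 by 1.21, and the other 5 by 0.10 to 0.31. A rise of at least 2-fold over those hours was found in 3 of the 8 genes and in 4.71% of all rows. SPS18 and PES4 were highest at 6 h and the other 6 at 8 h, which was the highest hour of 22.9% of all rows. From 6 h to 8 h, however, PES4 changed by only -0.01, SPS18 by -0.11, MIP6 and PFS1 by 0.06 and SPO19 by 0.09. Without replicate errors, the highest hour of these genes is not settled.

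**Figure D3:**
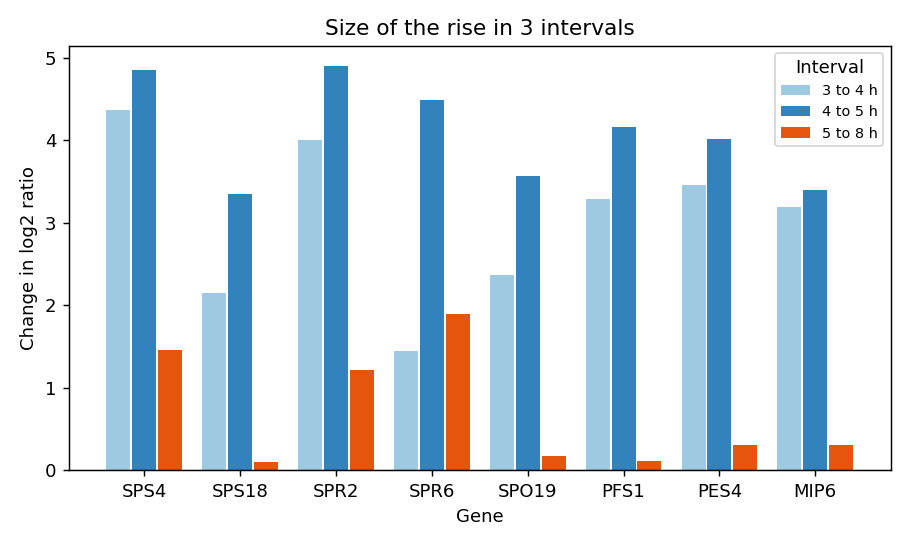
Bars give the change in log2 ratio of each of the 8 genes from 3 to 4 h, from 4 to 5 h and from 5 to 8 h, with 1 value per bar. The change from 4 to 5 h is 3.35 to 4.90 in all 8 genes, while that from 5 to 8 h is above 1 only in SPS4, SPR2 and SPR6.

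The order of the rise was read from a midpoint time, the hour at which a straight line between sampled hours first reaches 50% of a gene's highest log2 ratio. It was 3.95 h for MIP6, 4.00 h for PES4, 4.09 h for SPS4, 4.12 h for SPO19, 4.15 h for PFS1, 4.21 h for SPR2, 4.23 h for SPS18 and 4.58 h for SPR6. The first 7 times, 3.95 to 4.23 h, lie on both sides of the 4 h sample and span less than the 1 h between samples, and their order rests on the line drawn between samples. MIP6 and PES4 stayed the first and SPR6 the last with the columns scaled to a common spread, with the columns centred, and with the rise measured from the mean of 1, 2 and 3 h. All of these are midpoints on the log2 scale, and another measure gave another order. By the first of 2 consecutive hours at a log2 ratio of 1 or more, SPS4 was first, at 3 h, and the others began at 4 h.

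NDT80, the activator of the middle genes, stood above all 8 genes at 3 h but not at 4 h. It stood at -0.24, -0.10 and 1.62 at 1, 2 and 3 h, at 4.32 at 4 h and at 6.90, 7.10 and 6.98 at 5, 6 and 8 h (adjusted p = 0.00611). The highest of the 8 at 3 h was SPS4 (1.07). At 4 h SPS4 (5.44) was above NDT80 and PES4 (4.32) level with it. The midpoint time of NDT80 was 3.71 h, earlier than each of the 8, of which MIP6 was first at 3.95 h. That gap is shorter than the 1 h between samples and rests on the line drawn between them. At 8 h NDT80 lay below SPS4, SPR2, PES4, MIP6, SPR6 and PFS1.

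Of the 7 regulators listed with NDT80, 5 were induced, beside 21.8% of all rows. The trend test called 4 upward, beside 23.3% of all rows, and 1 downward, beside 1427 of the 5666 rows. IME2, a kinase that promotes meiosis, was at 4.38, 5.91 and 6.61 at 1, 4 and 6 h (adjusted p = 0.0038). IME1, the activator of entry into meiosis, was at 2.85 at 2 h and ended at 1.31 (adjusted p = 0.0277). HST1 and RFM1, which encode partners of the repressor Sum1, were highest at 2.50 (HST1, 5 h) and 2.32 (RFM1, 8 h), with adjusted p = 0.0139 and 0.0115. SUM1 itself lay between -0.15 and 0.49 (adjusted p = 0.0512), and UME6, for a regulator of early genes, between 0.27 and 0.52 (adjusted p = 0.422).

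Beside a list of 32 other middle sporulation genes the 8 rose at about the same time and to a higher median. Their median midpoint time was 4.13 h, against 4.16 h for the 32. The 32 had median log2 ratios of 0.71, 2.69, 5.81 and 5.84 at 3, 4, 5 and 8 h. All 32 were induced, beside 21.8% of all rows, and the trend test called 30 upward, beside 23.3%. The exceptions were SPO73 (adjusted p = 0.0536) and CLB1, a gene for a B-type cyclin (adjusted p = 0.0664), which also dipped to -2.39 at 3 h. At 3 h, 15 of the 32 were already 2-fold above 0 h, beside 9.81% of all rows. No test was made of the difference between the 2 lists.

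SPS2, a spore wall gene, was the highest of the 32 (11.70 at 8 h), followed by the kinase gene SPS1 (10.23 at 8 h). SPO73 had the lowest peak of the 32 (2.52 at 5 h). SPO71, needed like SPO73 to extend the prospore membrane, was at 3.09 at 8 h, close to GSC2 (3.05), a glucan synthase gene, and SPO12 (3.01). The rise from 5 h to 8 h passed 2-fold in 4 of the 32, beside 4.71% of all rows. These were SPR1, SPS1, SSP2 and AMA1, with SPR1, a glucanase gene, at 1.60.

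**Figure D4:**
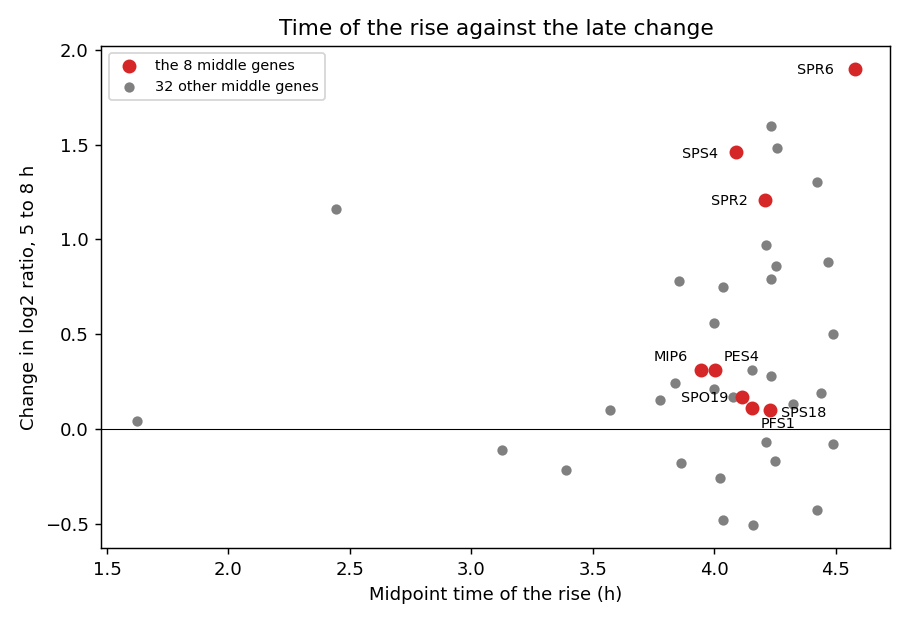
The change in log2 ratio from 5 to 8 h is plotted against the midpoint time of the rise in hours for the 8 genes (red, named) and for 32 other middle sporulation genes (grey), with 1 point per gene. SPR6 lies at 4.58 h and 1.90, beyond the latest of the grey points (4.49 h), and SPS4 and SPR2 lie above 1 at 4.09 and 4.21 h.

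Early genes took another course. At 1 h none of the 8 genes was 2-fold above 0 h, against all 10 early meiotic genes and 7.11% of all rows. The median of the early genes was 3.76, 5.51 and 4.34 at 1, 4 and 8 h. REC8, for a cohesin subunit made in meiosis, reached 6.60 at 3 h and RED1, of the chromosome axis, 4.35 at 4 h. The trend test called 6 of the early genes upward, beside 23.3% of all rows, and 3 downward, beside 1427 of the 5666 rows. These labels compare the fitted 8 h and 1 h values only and do not describe the rise to 4 h and the later fall of the median. For RED1 and HOP2, both called upward, the fitted values differed by only 0.10 and 0.04. All 10 stayed at least 2-fold above 0 h at every hour.

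The 7 late genes had a median of 1.78, 4.40 and 6.89 at 4, 5 and 8 h. All 7 were induced and called upward, beside 21.8% and 23.3% of all rows. SPR6 was at 5.69 at 5 h, where DIT1, which makes a precursor of the outer spore wall, stood at 1.27, and at 7.59 at 8 h, where DIT1 stood at 7.73. Some late genes rose with the 8. LDS1 and LDS2, for lipid droplet proteins with a role in spore wall assembly, had reached 8.04 and 8.37 at 5 h, and OSW2, a spore wall gene, was at 0.70, 2.82 and 6.45 at 3, 4 and 5 h. The median midpoint time was 4.13 h for the 8 genes and 4.11 h for the 7 late genes. RRT8 (1.25 at 8 h) and SPS100 (2.62 at 8 h) were the lowest of the 7.

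**Figure D5:**
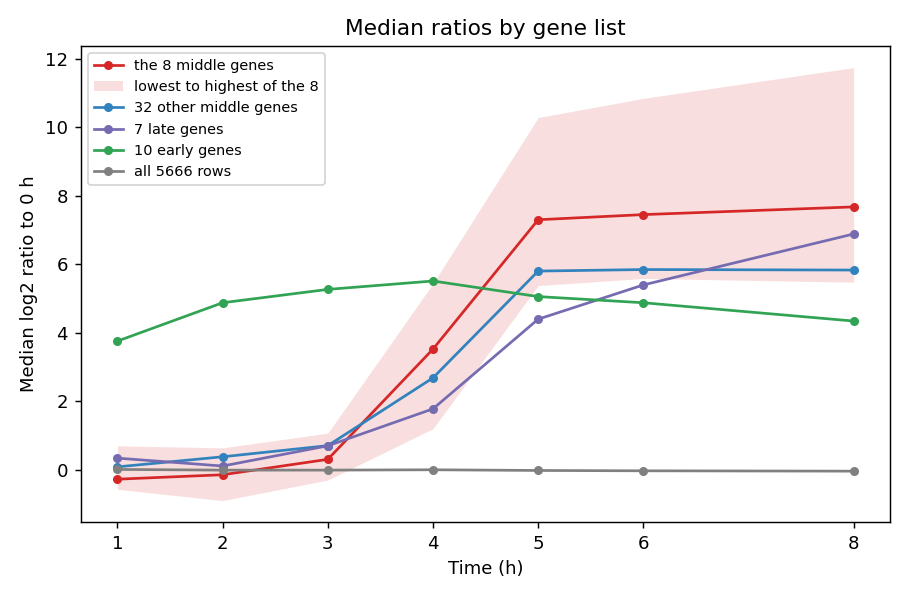
Median log2 ratios to 0 h are plotted against time in hours for the 8 genes (red, with a band from the lowest to the highest of them), 32 other middle genes, 7 late genes, 10 early meiotic genes and all 5666 rows. The red line crosses the early genes between 4 h (3.52 against 5.51) and 5 h (7.30 against 5.06).

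A list of mating genes, which are repressed in a/alpha diploid cells, was set beside the 8. It marks haploid cells, and no list here marks diploid cells that stayed outside meiosis. Of 8 listed, 6 had values, and their median lay between 0.10 and 0.33. STE3 and AGA2 were induced, STE3 to 4.55 at 5 h, AGA2 to 3.73 at 4 h. The other 4 (MFA2, STE6, BAR1 and MF(ALPHA)1) stayed between -0.76 and 0.42. The trend test called STE3 and AGA2 upward and STE6 downward, though the fitted 8 h minus 1 h of AGA2 was only 0.19. Over all rows 21.8% were induced, 23.3% were called upward and 1427 of 5666 downward. With 6 genes, these counts do not set the list apart from all rows. The part of either kind of cell in the values of the 8 genes was not tested.

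The genes with the nearest values were found by the root-mean-square difference over the 7 hours, with up to 3 named for each gene from 4766 other rows with a standard name. SPR2 lay closest to SPS1 (0.24), then to the septin gene SPR3 (0.60) and the hexose transporter family gene HXT14 (0.66). SPO19 lay closest to OSW2 (0.27) and then to SPO77 (0.30). For PES4 the nearest were IRC18 (0.33), SPR3 (0.34) and SPO74 (0.37), and for MIP6 the nearest were GAS4 (0.36), a glucan-modifying enzyme gene of the spore wall, HIM1 (0.39) and IRC18 (0.42). IRC18 was thus near both RNA-binding genes.

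PFS1 had SPS22 (0.40), DTR1 (0.47) and PIR5 (0.59) nearest to it. SPS18 had BIL2 (0.41), CNM1 (0.49) and SMA1 (0.54), the last needed for spore membrane assembly. SPR6 lay closest to SSP2 (0.45), an activator of the spore wall kinase Smk1, then to the galactose pathway gene GAL7 (0.64), which stood at 2.45 and 6.82 at 4 and 8 h, and to RRT12 (0.70). SPS4 had the fewest near genes, with 1 other gene, SPS2, within 1 on the log2 scale (0.75), then SPS1 (1.27) and SPR3 (1.46). SPS18, by contrast, had 32 genes within 1.

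Neighbours on the chromosome mostly did not share the step. The nearest annotated protein-coding gene on each side of the 8 gave 16 genes with values. Of these, 6 were induced, beside 21.8% of all rows. The trend test called 8 in either direction, beside 48.5% of all rows. These counts leave the size of a rise aside. At 5 h every neighbour but SSP1 lay at least 2.22 below the gene it adjoins. PFS1 ends towards SSP1, a gene of the leading edge of the prospore membrane. PFS1 was at -0.30, 2.99 and 7.15 at 3, 4 and 5 h, and SSP1 at 0.16, 4.75 and 8.14, so that SSP1 minus PFS1 was 1.76 at 4 h. MIP6 lies beside the early gene SPO13, read in the same direction. MIP6 was at -0.38, 4.06 and 7.77 at 1, 4 and 8 h, while SPO13 was at 3.60, 5.55 and 4.62.

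SPS18 starts back to back with SPS19, which encodes a peroxisomal enzyme of fatty acid breakdown. SPS19 stood at 1.13, -0.13, 0.10, 1.29 and 1.50 at 1, 3, 4, 5 and 6 h, without passing the trend test (adjusted p = 0.287). SPS19 minus SPS18 was -1.93 at 4 h and -4.09 at 5 h. Next to SPS18 in the numbering of the systematic names lies the row YNL205C, with no annotated gene. It was at -0.04, 1.70 and 4.64 at 3, 4 and 5 h, where SPS18 was at -0.12, 2.03 and 5.38. YNL205C thus rose in the same hours as SPS18, to a lower level. Whether the spots of these 2 rows share sequence was not tested. The row YNL203C, on the SPS19 side, followed SPS19, at 0.94 and 1.21 at 1 and 5 h.

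None of the other neighbours passed 1.72 at any hour. SLX8 beside SPR6 reached 1.25 at 8 h and SAS5 beside SPR2 reached 1.72 at 8 h (adjusted p = 0.0478 and 0.00914), BOI2 beside SPR6 was at 1.54 at 3 h already, and YOR314W, divergent from SPS4, stayed at or below 0.95. RPL20B and RPL5, which encode ribosomal proteins beside SPS4 and SPO19, were below 0 h at every hour.

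A last set held SPO1, whose mutant is suppressed weakly by extra SPO19, and the lipid droplet gene PLN1, with GCS1 and SPS19 given above. SPO1, a phospholipase relative that acts at the spindle pole body, had an earlier course than SPO19: it was at 2.41, 4.58 and 3.19 at 1, 4 and 8 h (adjusted p = 0.00847). PLN1 fell to -1.47 at 8 h, after 0.81 at 1 h (adjusted p = 0.00774). Of these 4, 2 were induced (SPS19 and SPO1), beside 21.8% of all rows. The trend test called 2 upward, beside 23.3% of all rows, and 1 downward, beside 1427 of the 5666 rows.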

How the data were processed

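The authors deposited log2 ratios, per the labels and design text, of each time point to a meiotic mRNA mix, divided by the 0 h ratio. How 3 cultures became 1 column, the array platform, background correction, normalization, centring and filters are not stated in the sources used here. Signal over background is therefore unknown, and precision is limited by how many arrays there were. Column medians were -0.04 to 0.01, and values were used as deposited. Of 6141 rows, 475 had no value and 5666 had all 7. Names and neighbours came from RefSeq R64, which 5655 rows matched. Its coordinates are not printed because the array's build is not stated.

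The trend test used limma 3.58.1 in R 4.3.3 (4 residual and 2.354 prior degrees of freedom, adjusted p threshold 0.05), with direction as fitted 8 h minus 1 h. On simulated data in which a small part of the rows changed, the test recovered most large linear changes but called none of the simulated steps, whatever their size. The check was first written with steps only, and linear changes were added after it had failed. The fitted test stayed as it was. Its adjusted p-values for genes that rise in a step therefore depend on how many other rows change at the same time, and they do not measure the size of a step. Other values were computed in Python 3.11.15 with pandas 2.3.3. The 8 genes, the 8 lists and the rule for named genes (the 8, their 3 nearest, the extremes of each list and all of the short lists) were chosen with earlier results of these data known. One of the nearest genes is not reported here. Rows named as neighbours, as behind a small count or as a contrast were chosen after their values were seen. Alternatives were the curve, column scale and centre, baseline, threshold, run length, variance prior, each hour left out and the measure of likeness.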

Additional observations from a re-analysis of the deposited data

How the results depend on the processing

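The count of the 8 genes called upward was 8 under a linear term, a spline with 3 degrees of freedom, scaled columns, centred columns, a ratio to 1 h and a trended, robust prior, and 7 to 8 when each hour was left out in turn. The share of all rows called upward ran from 11.8% without 2 h to 38.7% with the spline. The ratio to 1 h has the same 6 remaining columns as leaving out 1 h, and the same share of rows called (19.9%). The 7 came without 2 h, where SPS18 had an adjusted p of 0.0537. The count induced was 8 in all 12 alternatives, while the share of all rows induced ran from 8.74% at a log2 threshold of 2 to 26.7% with 1 hour in place of 2. With columns scaled to the same median absolute deviation, the median of the 8 genes was 5.61, 5.90 and 6.43 at 5, 6 and 8 h, PES4 and MIP6 began at 3 h, and SPS18 and PES4 were highest at 8 h. At a log2 threshold of 2, SPS4 began at 4 h and SPR6 at 5 h. In scaled columns 7 of the 8 midpoint times moved earlier by over 0.1 h, an alternative chosen after the data were seen. The tolerances of 0.1 h for a midpoint time and 0.25 log2 for a median were set after values had been seen, the second in place of a wider one. By Pearson correlation in place of root-mean-square difference, the 3 nearest genes kept 1 of the original 3 for SPS4, SPR2 and PES4 and 0 for the other 5. No paired analysis was possible because each time point is 1 column. With 1 column per hour, neither the spread between cultures nor the signal behind the 0 h values can be seen.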
